A study of Mus musculus with 12 samples.

Results

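The genes described here are 14 families of homeobox and paired box transcription factors outside the Hox clusters: Pax, Lhx, Six2 to Six6, Dlx, Irx, Isl, Msx, En, Emx, Otp, Gsx and the Nkx2, Nkx3 and Nkx6 groups. They were chosen with earlier results of these data known. Members were found by symbol, as a family name followed by a number where it has one, and 59 mouse genes met that rule. Of these, 56 genes are described, from a deposited table of 39017 genes, and Lhx8 was not analysed here. The study asked whether mouse embryonic stem cells (mESCs) that keep their DNA methylation in naive culture also keep the expression profile of serum culture, and RNA was sequenced from 12 libraries. The 4 groups of 3 biological replicates were wild-type J1 cells in serum+LIF, J1 cells in 2i+LIF, 3B3-3l cells in serum+LIF and 3B3-3l cells in 2i+LIF.

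LIF, a cytokine that sustains self-renewal, was present in every group. 2i is a serum-free medium with the MEK inhibitor PD0325901 at 1 µM and the Gsk3 inhibitor CHIR99021 at 3 µM, and it is known to lower DNA methylation across the genome of wild-type mESCs. The 3B3-3l line (3B3L in the study) lacks both endogenous de novo methyltransferases (Dnmt3a-/-, Dnmt3b-/-) and carries a Dnmt3b transgene and a Flag-tagged Dnmt3l transgene, each driven by the constitutive CAG promoter. It is 1 engineered line, so a difference from J1 cannot be assigned to methylation, to the lost alleles or to other differences between the lines. J1 cells in serum were grown on inactivated SNLP feeder cells and 3B3-3l cells on gelatin, so the line and the culture surface cannot be told apart in serum. By the methods of the study, feeders were depleted by repeated brief plating before analysis or conversion to 2i.

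Homeobox factors bind DNA through a conserved homeodomain, and Pax proteins carry a paired domain, with or without a full homeodomain. The families specify neural tube domains, limb, eye, heart, kidney and pancreas, each in a restricted set of embryonic cells, and their genes typically lie in CpG-rich, polycomb-bound chromatin in mESCs. Several form neighbouring pairs or clusters that go back to ancient duplications, such as the Irx clusters and the Dlx pairs.

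The promoters of these genes were rich in CpG, the dinucleotide at which mouse DNA is methylated. RefSeq windows from 250 bases before to 50 after a gene's start, on GRCm38.p6 (the mm10 build), were matched by symbol for 43 of the 56 genes. The median window held 20 CpG per 300 bases against 7 in all 27025 genes with a window. The ratio of observed to expected CpG had a median of 0.748 against 0.389, and it reached 0.6 in 72.1% of these genes against 36.5% of all genes. The 4 bases TAAT, the core that many homeodomains bind, lay on either strand in 55.8% of the windows and in 58.4% of all windows. The 6 bases CTTTGA, bound by TCF factors of the Wnt pathway, were in 4.65% against 16.2%. A match to such letters is a description and not a binding site.

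**Figure D1:**
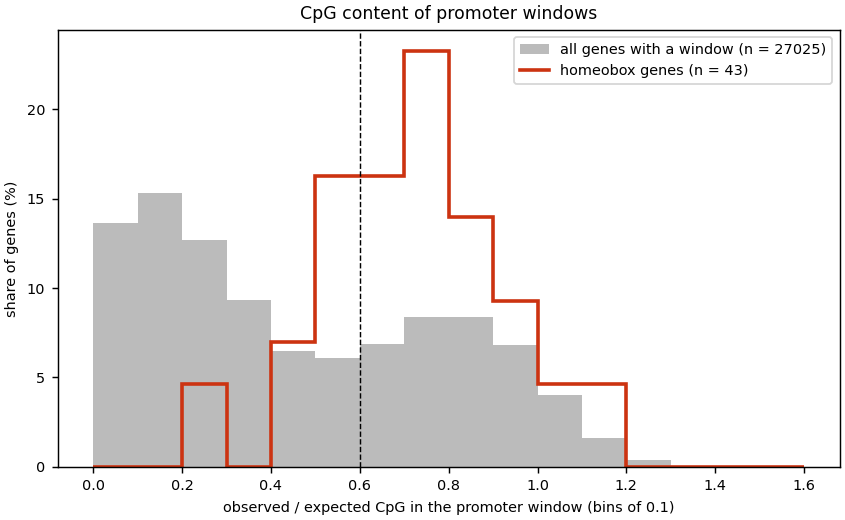
The x axis is the ratio of observed to expected CpG in the 300-base window around a gene's start, and the y axis the share of genes in percent. The outline stands for the 43 homeobox genes with a window and the filled bars for all 27025 genes; the dashed line marks 0.6, which 72.1% of the homeobox genes and 36.5% of all genes reached.

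The 4 upstream stretches below are shown because they belong to genes whose levels moved far in opposite directions between the media. Nkx6-2 and Irx2 were higher in 2i, while Pax6 and Irx4 were lower. Irx2 and Irx4 are also neighbours on 1 chromosome. Each is the 250 bases before a RefSeq start, 5′ to 3′ on the gene's own strand, with CG in capitals. For Irx2 and Irx4 that start lies 4.39 and 0.908 kb inside the gene's RefSeq span, and for Nkx6-2 and Pax6 it is the first base of the span.
Nkx6-2, chr7:139582798-139583047, minus strand: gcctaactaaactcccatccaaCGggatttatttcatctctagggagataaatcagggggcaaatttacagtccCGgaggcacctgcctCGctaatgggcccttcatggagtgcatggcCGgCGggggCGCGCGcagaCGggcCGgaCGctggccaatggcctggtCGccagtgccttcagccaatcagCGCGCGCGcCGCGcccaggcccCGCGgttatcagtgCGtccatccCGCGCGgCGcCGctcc
Irx2, chr13:72628570-72628819, plus strand: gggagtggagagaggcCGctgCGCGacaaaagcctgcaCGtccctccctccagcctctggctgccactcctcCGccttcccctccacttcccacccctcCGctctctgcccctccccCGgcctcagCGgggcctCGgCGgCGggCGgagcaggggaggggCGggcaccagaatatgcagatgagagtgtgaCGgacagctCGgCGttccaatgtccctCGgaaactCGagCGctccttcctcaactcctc
Pax6, chr2:105668646-105668895, plus strand: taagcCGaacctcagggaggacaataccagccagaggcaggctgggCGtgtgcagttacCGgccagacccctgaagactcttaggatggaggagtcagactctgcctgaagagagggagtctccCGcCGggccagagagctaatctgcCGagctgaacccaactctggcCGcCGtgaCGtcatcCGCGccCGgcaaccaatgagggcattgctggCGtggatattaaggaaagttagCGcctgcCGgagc
Irx4, chr13:73260247-73260496, plus strand: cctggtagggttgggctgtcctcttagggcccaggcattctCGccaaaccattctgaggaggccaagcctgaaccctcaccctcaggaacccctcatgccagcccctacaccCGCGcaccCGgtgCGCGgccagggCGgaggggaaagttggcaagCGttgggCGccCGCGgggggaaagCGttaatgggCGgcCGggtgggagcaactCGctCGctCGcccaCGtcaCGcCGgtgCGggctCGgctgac
These stretches held 26 CG in Nkx6-2, 19 in Irx2, 15 in Pax6 and 22 in Irx4. CpG content varied among the genes that fell, since the same stretch held 13 CG in Nkx2-9 and 6 in Pax8.

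The libraries held 37050652 to 44515395 estimated reads each. Levels are given as CPM, read counts scaled to a common library size after correction for composition, and 3 counts in a library correspond to 0.0684 to 0.0813 CPM. Summed over 8 stem cell markers (Pou5f1 and Nanog among them), levels lay between 4604 and 6416 CPM in every library. The single markers were divided. By the test given below, 3 were higher and 3 lower in 2i in J1, and 4 were higher and 2 lower in 3B3-3l. Dnmt3b was at 865.7 to 935.9 CPM in all 6 3B3-3l libraries and at 404.1 to 426.9 CPM in J1 in serum and 40.99 to 47.24 CPM in J1 in 2i. Dnmt3a still had 29.36 to 34.27 CPM in 3B3-3l in serum, against 165.8 to 167.3 CPM in J1; counts over the whole gene do not show which exons were deleted. The libraries are bulk RNA, so fewer cells expressing a gene and less RNA per cell cannot be told apart.

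Most members were expressed at a low level. The count filter, which asks for enough reads in at least 3 libraries, kept 27 of the 56 members among the 17885 genes tested. The 29 others stayed at or below a group mean of 0.3045 CPM. All 56 together summed to 83.74 to 88.06 CPM in J1 in serum, 75.95 to 80.13 in J1 in 2i, 70.66 to 78.23 in 3B3-3l in serum and 76.41 to 81.17 in 3B3-3l in 2i. Six4 made up more of that sum than any other of these genes in each of the 4 groups. Without it, the sums were 42.65 to 45.34, 48.25 to 50.74, 35.15 to 43.15 and 52.91 to 54.94 CPM in the same order, higher in 2i than in serum in both lines.

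**Figure D2:**
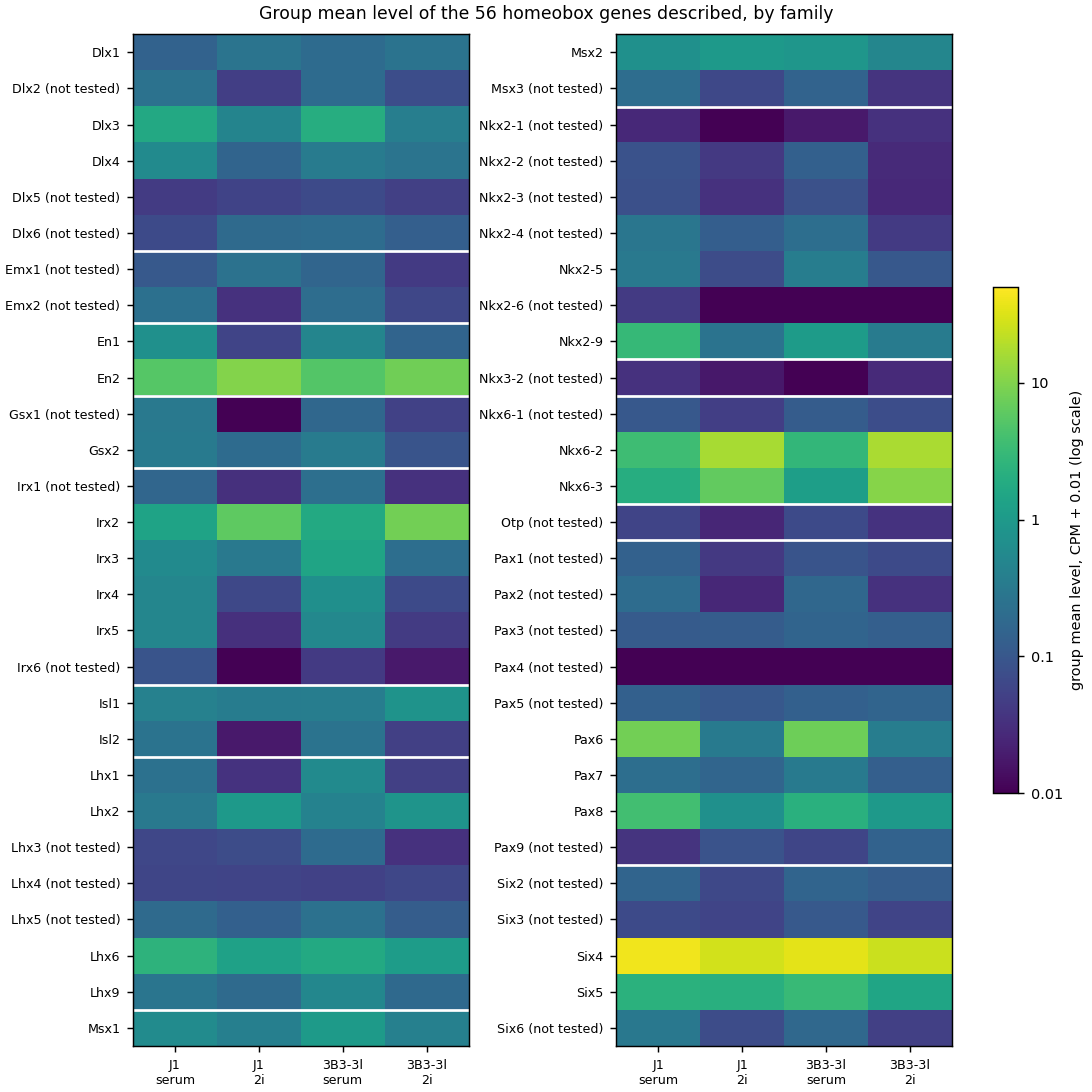
Colour gives the mean level of each of the 56 genes in the 4 groups on a log scale (CPM plus 0.01), with white lines between families and untested genes marked. Six4, Nkx6-2, En2, Irx2, Nkx6-3 and Pax6 are the bright rows, and 29 genes stay at or below 0.3045 CPM in every group.

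By family, the sine oculis homologues Six2 to Six6 together had 44.6 ± 0.866 CPM (SD, n = 3) in J1 in serum, 30.2 ± 3.65 in J1 in 2i, 38.5 ± 0.206 in 3B3-3l in serum and 26.6 ± 1.11 in 3B3-3l in 2i, nearly all of it from Six4. The Nkx6 group went the other way: J1 had 5.63 ± 0.505 CPM in serum and 22.8 ± 1.59 in 2i, and 3B3-3l had 4.07 ± 0.832 and 27.7 ± 1.80. Irx and En also had higher sums in 2i in both lines, and in 2i most of each sum came from 1 gene, Irx2 or En2. Pax genes summed to 12.8 ± 0.457 CPM in serum and 1.52 ± 0.0518 in 2i in J1, against 10.6 ± 0.222 and 1.95 ± 0.188 in 3B3-3l. For Nkx2 the sums were 3.75 ± 0.601 and 0.480 ± 0.104 CPM in J1, against 1.84 ± 0.342 and 0.517 ± 0.0735 in 3B3-3l. The Dlx, Gsx and Lhx sums were also lower in 2i in both lines. Isl sums were lower in 2i in J1 (0.667 ± 0.127 and 0.359 ± 0.0273 CPM) and not in 3B3-3l (0.610 ± 0.142 and 0.834 ± 0.224 CPM). Msx sums were close in J1 (1.51 ± 0.136 and 1.42 ± 0.296 CPM) and lower in 2i in 3B3-3l (2.03 ± 0.452 and 0.915 ± 0.106 CPM). Emx1, Emx2, Nkx3-2 and Otp were not among the tested genes, and the sums themselves were not tested.

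Between serum and 2i, more members fell than rose in both lines. In J1, 14 of the 27 tested members were lower in 2i and 5 were higher at an adjusted p under 0.05 (edgeR quasi-likelihood test, Benjamini-Hochberg over all genes tested), while among all genes tested 32.9% were lower and 33.2% higher. In 3B3-3l, 19 were lower and 6 higher, against 32.7% of all genes in each direction. The median log2 fold change of the 27 was -0.75 in J1 and -1.37 in 3B3-3l, beside 0.01 over all genes tested in each line. Lower calls in both lines were made for 13 members (24.0% of all genes) and higher calls in both for 5, namely En2, Irx2, Lhx2, Nkx6-2 and Nkx6-3 (23.4% of all genes). A low gene could pass the filter through the groups where it was high, so these counts are a description. Where the average over the 12 libraries reached 1 CPM, J1 had 6 of 11 members lower in 2i (33.93% of all such genes) and 4 higher (38.03%), while 3B3-3l had 7 lower (33.1%) and 4 higher (38.47%). The median over these 11 was -0.58 in J1 and -0.70 in 3B3-3l.

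**Figure D3:**
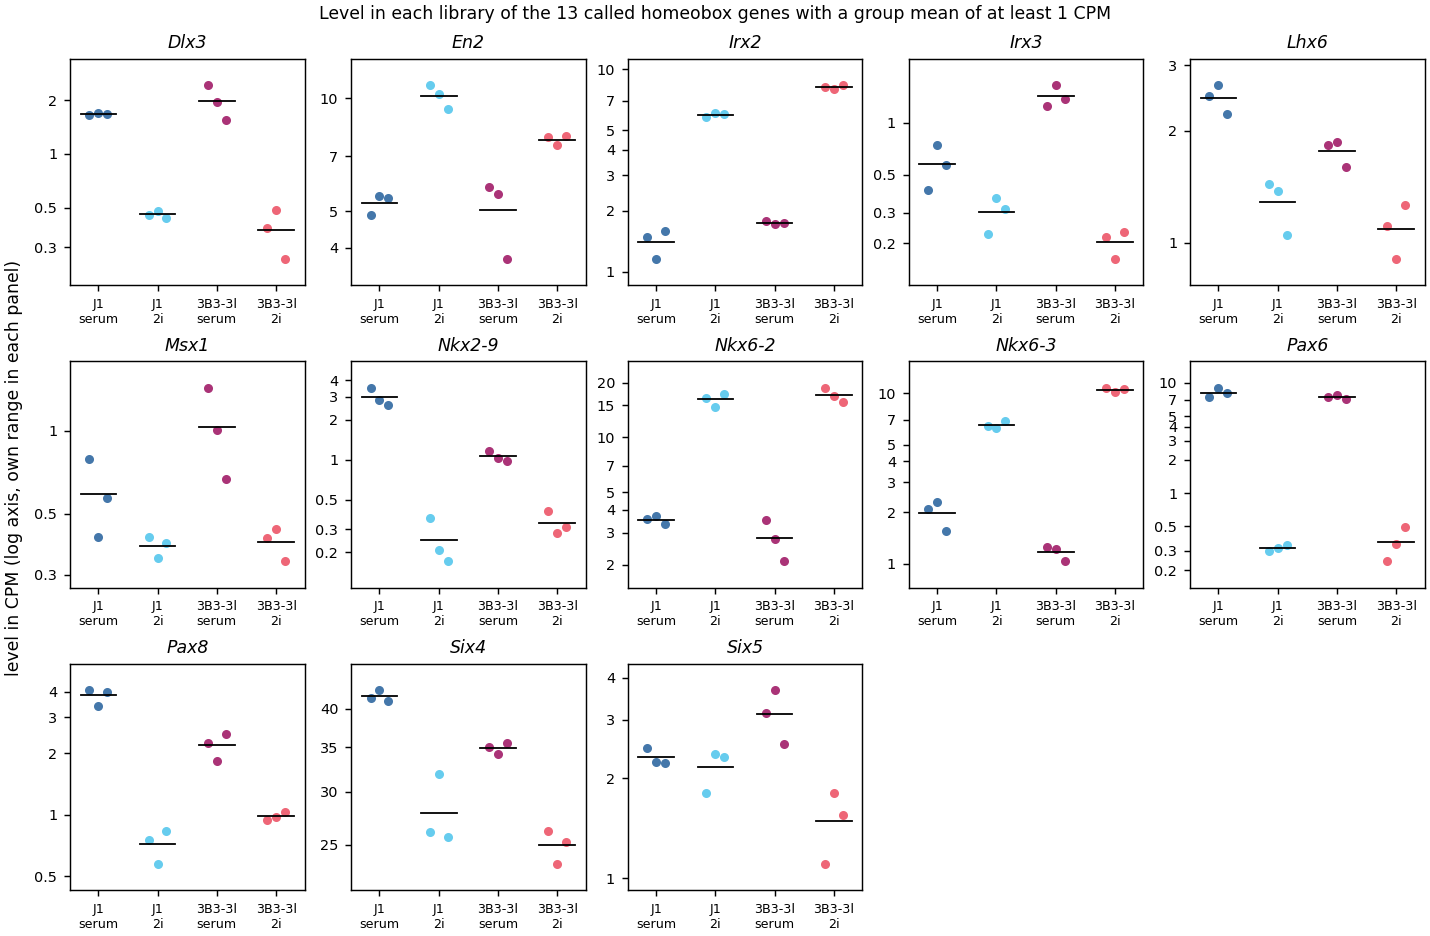
Each panel shows 1 gene, with the level in CPM on a log axis of its own range, a point for each of the 3 libraries of the 4 groups and a line at the group mean. Nkx6-2, Nkx6-3, Irx2 and En2 lie higher in 2i in both lines, and Pax6, Nkx2-9, Pax8, Dlx3 and Six4 lie lower in 2i in both.

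Of the genes that rose in both lines, Nkx6-2 had the largest log2 fold change in J1 and Nkx6-3 the largest in 3B3-3l. Nkx6-2 (chr7:139579376-139582797, GRCm38), which helps pattern the ventral neural tube and is used in oligodendrocytes, was at 3.58, 3.69 and 3.36 CPM in J1 in serum and at 16.5, 14.8 and 17.4 in J1 in 2i, and at 3.52, 2.77 and 2.09 in 3B3-3l in serum and 18.8, 16.8 and 15.7 in 3B3-3l in 2i. All 6 libraries in 2i lay above all 6 in serum. Its log2 fold change was 2.19 ± 0.13 (SE, adjusted p = 3.37e-10) in J1 and 2.61 ± 0.13 (adjusted p = 5.13e-11) in 3B3-3l. Exons of Nkx6-2 overlap those of Inpp5a on the opposite strand, and reads were assigned by strand.

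Nkx6-3 (chr8:23153271-23158948), a factor of the stomach and hindbrain, had 2.10, 2.31 and 1.54 CPM in J1 in serum and 6.40, 6.29 and 6.85 in J1 in 2i. In 3B3-3l it had 1.25, 1.22 and 1.03 CPM in serum and 10.8, 10.2 and 10.6 in 2i. Each of the 4 groups stood apart from the others, with 3B3-3l the lower line in serum and the higher line in 2i. The rise was 1.70 ± 0.12 (adjusted p = 3.95e-09) in J1 and 3.17 ± 0.13 (adjusted p = 3.61e-12) in 3B3-3l on the log2 scale. The lines differed in both media, by -0.77 ± 0.15 in serum (adjusted p = 0.000835) and 0.69 ± 0.10 in 2i (adjusted p = 4.61e-05).

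Irx2 (chr13:72624430-72634196) belongs to the Iroquois factors, which pattern the neural plate and limb. Its levels were 1.48, 1.16 and 1.60 CPM in J1 in serum, 5.83, 6.08 and 6.0 in J1 in 2i, 1.77, 1.72 and 1.75 in 3B3-3l in serum, and 8.20, 7.99 and 8.35 in 3B3-3l in 2i. No library in 2i overlapped a serum library, and in 2i the 3B3-3l libraries were all above those of J1. Fold changes were 2.08 ± 0.11 (adjusted p = 1.3e-10) in J1 and 2.22 ± 0.11 (adjusted p = 2.74e-11) in 3B3-3l on the log2 scale, and the lines differed in 2i by 0.45 ± 0.09 (adjusted p = 0.000748). A transcript of 2623 bases took 83.91% to 93.29% of its reads by group mean. A shorter one of 927 bases took 9.954% and 10.38% in the 2i groups and 3.506% and 6.946% in the serum groups, where 1 library alone reached 12.5%.

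En2 (chr5:28165696-28172190), the engrailed factor of the midbrain and hindbrain, had the smallest rise of the genes above 1 CPM that rose. It was at 4.90, 5.50 and 5.42 CPM in J1 in serum, 10.8, 10.3 and 9.34 in J1 in 2i, 5.79, 5.57 and 3.73 in 3B3-3l in serum, and 7.86, 7.48 and 7.92 in 3B3-3l in 2i. Serum and 2i did not overlap in either line, and the serum libraries of the lines did. The log2 fold change was 0.95 ± 0.12 (adjusted p = 4.82e-06) in J1 and 0.62 ± 0.13 (adjusted p = 0.000406) in 3B3-3l. In 2i, En2 was lower in 3B3-3l by -0.39 ± 0.12 (adjusted p = 0.013), a call lost without J1 2i replicate 1 (adjusted p = 0.0571). Its paralogue En1 fell, as described below. Lhx2, a LIM factor of eye and forebrain, was also higher in 2i, with 36 counts over the serum and 125 over the 2i libraries of J1 and 52 and 100 in 3B3-3l (log2 fold changes of 1.69 ± 0.29 and 0.89 ± 0.28). Without 3B3-3l serum replicate 3 the rise in 3B3-3l was no longer called (adjusted p = 0.0569).

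Pax6 had the steepest fall of all genes here with a group mean above 1 CPM. It is the paired box regulator of eye, forebrain and pancreatic islets (chr2:105668896-105698410). Its level was 7.43, 9.06 and 8.02 CPM in J1 in serum and 7.52, 7.79 and 7.21 in 3B3-3l in serum, against 0.296, 0.321 and 0.341 in J1 in 2i and 0.240, 0.347 and 0.490 in 3B3-3l in 2i. The lines overlapped in both media, and the media did not overlap in either line. Log2 fold changes were -4.66 ± 0.17 (adjusted p = 1.01e-12) in J1 and -4.38 ± 0.17 (adjusted p = 1.53e-12) in 3B3-3l. They differed between the lines by 0.28 ± 0.29 (adjusted p = 0.523). Between the lines in serum, Pax6 differed by -0.12 ± 0.11 (adjusted p = 0.403). Several Pax6 transcripts shared its reads, and none of the models held more than 44.36% in a serum group; in 2i the 41 and 44 reads per group are too few to divide.

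Per length of transcript, the genes changed places between the media. For the 10 of the 13 genes below and above whose transcript counts added up to the gene count, Pax6 had the highest level in serum, at 4.75 ± 0.696 CPM per kb in J1 and 4.25 ± 0.348 in 3B3-3l (SD, n = 3). Nkx6-2 was at 2.90 ± 0.207 and 2.32 ± 0.535 CPM per kb, and in J1 its range overlapped that of Nkx2-9 (2.72 ± 0.440). In 2i Nkx6-2 was first, at 13.5 ± 0.887 CPM per kb in J1 and 13.6 ± 1.47 in 3B3-3l. Irx2 and Nkx6-3 followed in J1, at 3.85 ± 0.286 and 3.16 ± 0.136 CPM per kb. In 3B3-3l the same 2 genes followed at 4.90 ± 0.105 and 5.07 ± 0.167, with overlapping ranges. Pax6 was at 0.233 ± 0.133 and 0.205 ± 0.0309 CPM per kb in 2i, the eighth and the ninth of the 10. Irx3, Msx1 and Six4 could not be placed on this scale.

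Dlx3, a distal-less factor of skin, placenta and tooth on chromosome 11, had 1.65, 1.69 and 1.68 CPM in J1 in serum, 0.456, 0.482 and 0.439 in J1 in 2i, 2.43, 1.96 and 1.54 in 3B3-3l in serum, and 0.385, 0.486 and 0.258 in 3B3-3l in 2i. Its groups split by medium and overlapped between lines. It changed by -1.86 ± 0.22 (adjusted p = 2.14e-06) in J1 and -2.37 ± 0.23 (adjusted p = 1.54e-07) in 3B3-3l on the log2 scale.

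**Figure D4:**
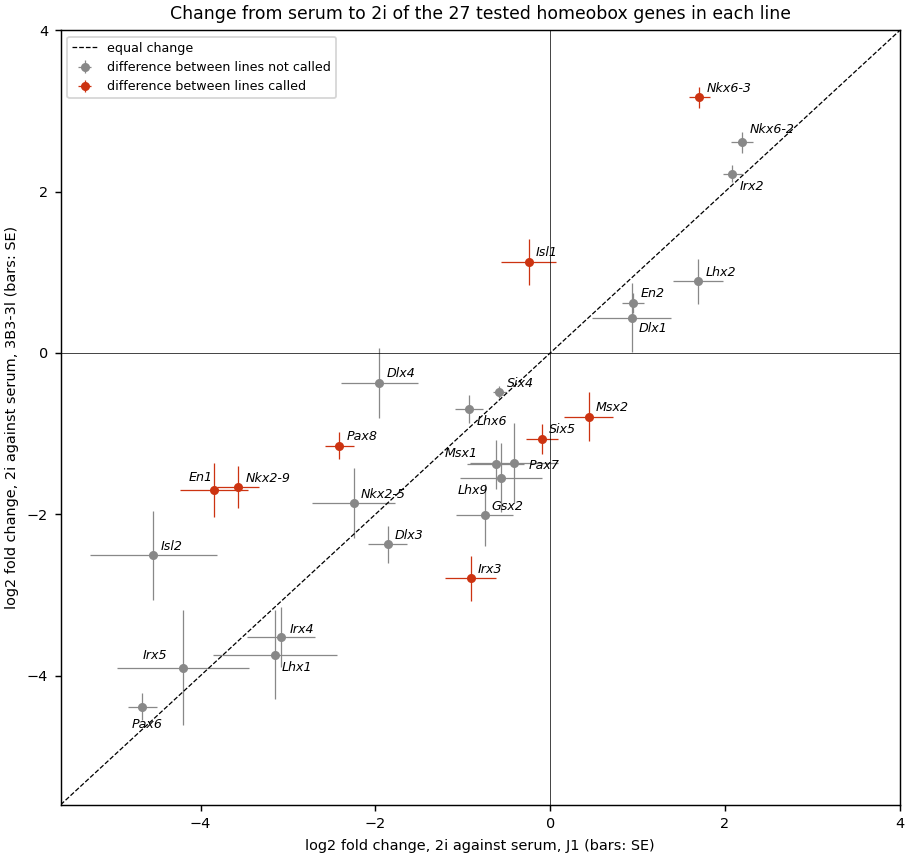
Each point is 1 of the 27 tested genes, with its log2 fold change from serum to 2i in J1 on the x axis and in 3B3-3l on the y axis; bars are SE and the dashed line marks equal change. The 8 red genes differ between the lines at an adjusted p under 0.05, and Pax6, Nkx6-2 and Irx2 lie near the line of equal change.

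The 2i effects of the lines differed for 8 of the 27 members. The difference (3B3-3l minus J1) was higher for 5 of them and lower for 3, while 16.3% of all genes were higher and 18.3% lower. Nkx2-9, Pax8 and En1 fell less in 3B3-3l, Nkx6-3 rose more, and Isl1 rose in 3B3-3l. Irx3 fell further in 3B3-3l, and Six5 and Msx2 fell in 3B3-3l with no call in J1.

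Nkx2-9, a factor of the ventral neural tube and lung (chr12:56611389-56613569), had 3.51, 2.82 and 2.60 CPM in J1 in serum, 0.364, 0.207 and 0.171 in J1 in 2i, 1.18, 1.03 and 0.979 in 3B3-3l in serum, and 0.409, 0.278 and 0.309 in 3B3-3l in 2i. The lines stood apart in serum and overlapped in 2i. Its log2 fold change was -3.57 ± 0.24 (adjusted p = 2.24e-09) in J1 and -1.67 ± 0.26 (adjusted p = 3.1e-05) in 3B3-3l, a difference of 1.90 ± 0.38 (adjusted p = 0.00126). In serum it was lower in 3B3-3l by -1.49 ± 0.19 (adjusted p = 2.19e-05).

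Pax8, the paired box factor of thyroid and kidney (chr2:24420551-24475599), was at 4.08, 3.42 and 4.01 CPM in J1 in serum, 0.752, 0.574 and 0.829 in J1 in 2i, 2.25, 1.84 and 2.47 in 3B3-3l in serum, and 0.938, 0.973 and 1.03 in 3B3-3l in 2i. None of the 4 groups overlapped. It changed by -2.42 ± 0.17 (adjusted p = 2.78e-09) in J1 and -1.15 ± 0.17 (adjusted p = 1.6e-05) in 3B3-3l on the log2 scale, with a difference of 1.26 ± 0.24 (adjusted p = 0.000846). The lower level in 3B3-3l in serum (-0.81 ± 0.14, adjusted p = 0.000368) became -0.49 (adjusted p = 0.107) once the length of the transcripts in use was taken into account.

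Six4 (chr12:73099609-73114031), a sine oculis factor of muscle and sensory precursors, had the most reads of the genes described. Its levels were 41.6, 42.7 and 41.1 CPM in J1 in serum, 26.1, 31.9 and 25.7 in J1 in 2i, 35.1, 34.2 and 35.5 in 3B3-3l in serum, and 26.2, 23.4 and 25.2 in 3B3-3l in 2i. Serum and 2i did not overlap in either line. It fell by 0.58 on the log2 scale (SE 0.07, adjusted p = 3.31e-06) in J1 and by 0.49 (SE 0.07, adjusted p = 2.57e-05) in 3B3-3l, with a difference of 0.10 ± 0.10 (adjusted p = 0.508). Its level in serum was lower in 3B3-3l by -0.26 ± 0.07 (adjusted p = 0.0105). Six5, a factor of the same family that lies beside the myotonic dystrophy kinase gene, was at 2.46, 2.24 and 2.22 CPM in J1 in serum, 1.80, 2.36 and 2.32 in J1 in 2i, 3.13, 3.68 and 2.52 in 3B3-3l in serum, and 1.11, 1.81 and 1.55 in 3B3-3l in 2i. The media overlapped in J1 and not in 3B3-3l. Its 2i change was -0.10 ± 0.18 (adjusted p = 0.654) in J1 and -1.07 ± 0.19 (adjusted p = 9.68e-05) in 3B3-3l, a difference of -0.97 ± 0.26 (adjusted p = 0.00886).

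Irx3, an Iroquois factor of the neural tube and heart on chromosome 8, had 0.406, 0.747 and 0.569 CPM in J1 in serum, 0.228, 0.367 and 0.317 in J1 in 2i, 1.25, 1.65 and 1.36 in 3B3-3l in serum, and 0.216, 0.162 and 0.232 in 3B3-3l in 2i. The 3B3-3l serum libraries were above all others, and the lines overlapped in 2i. The change was -2.80 ± 0.28 (adjusted p = 2.73e-07) in 3B3-3l and -0.91 ± 0.29 (adjusted p = 0.0124) in J1, a difference of -1.88 ± 0.42 (adjusted p = 0.00297). The fall in J1 was no longer called without J1 serum replicate 2 (adjusted p = 0.0794) or J1 2i replicate 1 (adjusted p = 0.058). In serum Irx3 was higher in 3B3-3l by 1.31 ± 0.24 (adjusted p = 0.000482).

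Lhx6, a LIM factor of cortical interneurons and jaw, had 2.48, 2.65 and 2.22 CPM in J1 in serum, 1.44, 1.38 and 1.05 in J1 in 2i, 1.83, 1.86 and 1.60 in 3B3-3l in serum, and 1.11, 0.904 and 1.26 in 3B3-3l in 2i. Its media stood apart in both lines, and its lines overlapped in 2i. It fell in both lines, with log2 fold changes of -0.93 ± 0.16 (adjusted p = 0.000103) in J1 and -0.70 ± 0.17 (adjusted p = 0.00214) in 3B3-3l. Msx1, a muscle segment factor of limb and tooth that responds to BMP, had 0.788, 0.410 and 0.569 CPM in J1 in serum, 0.410, 0.344 and 0.390 in J1 in 2i, 1.44, 1.00 and 0.669 in 3B3-3l in serum, and 0.409, 0.440 and 0.335 in 3B3-3l in 2i. Its J1 groups overlapped, and it fell in 3B3-3l (-1.38 ± 0.30, adjusted p = 0.000861). The difference of the lines in serum was -0.48 ± 0.16 for Lhx6 (adjusted p = 0.025) and 0.81 ± 0.29 for Msx1 (adjusted p = 0.0367). The call for Lhx6 was lost without J1 serum replicate 1 or 2 or 3B3-3l serum replicate 3 (adjusted p up to 0.101), and that for Msx1 without J1 serum replicate 2 or 3 or 3B3-3l serum replicate 1 or 2 (adjusted p up to 0.202).

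Between the lines, 8 of the 27 members were called in each medium. In 2i, En1, Irx2, Isl1 and Nkx6-3 were higher in 3B3-3l and En2, Gsx2, Msx2 and Six5 lower; these 4 and 4 calls stand beside 23.0% and 22.9% of all genes. In serum, Irx3, Lhx1 and Msx1 were higher in 3B3-3l and Lhx6, Nkx2-9, Nkx6-3, Pax8 and Six4 lower, 3 and 5 calls beside 21.5% and 17.2% of all genes. The 5 that were lower in serum all averaged at least 1 CPM over the 12 libraries. Among the 11 members at that level, 5 were lower and 0 higher, beside 20.24% and 24.88% of all such genes. Nkx6-3 was called in both media, lower in serum and higher in 2i. Leaving out J1 2i replicate 1 reduced the 8 calls in 2i to 4. The 2i call of En1 was lost without J1 2i replicate 1 or 2 or 3B3-3l 2i replicate 1 (adjusted p up to 0.106), and that of Gsx2 without J1 2i replicate 1 or 3 or any 1 of the 3B3-3l 2i replicates (adjusted p up to 0.12). Msx2 lost it without replicate 1 of either line (adjusted p up to 0.0607), and Six5 without J1 2i replicate 2 or 3 or 3B3-3l 2i replicate 1 or 3 (adjusted p up to 0.147). The serum call of Lhx1 was lost without J1 serum replicate 1 or 3 or 3B3-3l serum replicate 2 (adjusted p up to 0.0845).

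A further 13 members were called in at least 1 comparison but stayed under 1 CPM in every group, and their values rest on few reads. Of these, 6 fell in both lines: En1, Irx4, Irx5, Isl2, Lhx1 and Nkx2-5. Irx4, a factor of heart ventricle, had 58 reads over the 3 serum libraries of J1 and 7 over those in 2i, and 81 and 7 in 3B3-3l. The ratio of the serum to the 2i level was 8.74 (95% exact interval 3.98 to 22.7) in J1 and 12.4 (5.77 to 31.9) in 3B3-3l, where the interval covers counting error only. Irx5, an Iroquois factor of heart and retina, had 58 and 3 reads in J1 and 63 and 4 in 3B3-3l, ratios of 20.4 (6.64 to 101.7) and 16.9 (6.30 to 64.1). Isl2, a LIM factor of motor neurons, had 30 and 1 reads in J1 and 29 and 5 in 3B3-3l. Lhx1, a factor of head organizer and kidney, had 28 and 3 reads in J1 and 69 and 5 in 3B3-3l, while Nkx2-5, a factor of early heart, had 37 and 8 and then 43 and 12. In all 6 genes every serum library of a line lay above every 2i library of that line. These 6 were picked by their calls, so the separation is a description, and its share over all genes was not counted.

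En1, the paralogue of En2, had 86 reads in serum and 6 in 2i in J1 and 57 and 18 in 3B3-3l. Its log2 fold change was -3.84 ± 0.39 in J1 and -1.69 ± 0.34 in 3B3-3l, and the difference of 2.15 ± 0.58 was called (adjusted p = 0.00902). Isl1, a LIM factor of motor neurons and heart progenitors, rose in 3B3-3l from 43 to 99 reads (1.13 ± 0.29, adjusted p = 0.00247), beside 50 and 45 reads in J1. Msx2 fell in 3B3-3l from 102 to 61 reads (-0.79 ± 0.30, adjusted p = 0.0326), beside 87 and 126 in J1. The differences between lines were 1.38 ± 0.42 for Isl1 (adjusted p = 0.0195) and -1.23 ± 0.42 for Msx2 (adjusted p = 0.0313), and each rested on single libraries. That of Isl1 was lost without J1 serum replicate 2 or 3, 3B3-3l serum replicate 2 or 3B3-3l 2i replicate 2 (adjusted p up to 0.0668), and that of Msx2 without replicate 1 or 3 of J1 in either medium, 3B3-3l serum replicate 2 or 3B3-3l 2i replicate 1 (adjusted p up to 0.0805). The fall of Msx2 in 3B3-3l was itself lost without 3B3-3l serum replicate 1 or 2 or 2i replicate 1 (adjusted p up to 0.123). Gsx2, Lhx9 and Pax7 fell in 3B3-3l with no call in J1, and Dlx4 fell in J1 with no call in 3B3-3l; for these 4 the difference between the lines was not called (adjusted p = 0.088, 0.263, 0.331 and 0.0631). Exons of Gsx2 overlap those of another gene entry of the same name on the same strand. Its reads may be divided between these entries, which was not tested. The fall of Pax7 in 3B3-3l was lost without serum replicate 2 or 3 or any 1 of the 2i replicates of that line (adjusted p up to 0.103). Dlx1 passed the filter and was called in no comparison.

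The 29 members under the filter summed to 3.20 to 3.50 CPM in J1 in serum and 1.32 to 1.79 in J1 in 2i, and to 2.96 to 3.56 and 1.34 to 1.57 CPM in 3B3-3l. The group mean was lower in 2i than in serum for 22 of the 29 in each line and higher for 6 in J1 and 5 in 3B3-3l. The same count was not made over all genes under the filter, so it describes these genes alone. Gsx1, a factor of ventral forebrain, had 37 reads in J1 in serum and none in J1 in 2i. With a floor of 3 reads set for the J1 2i group, Gsx1 was 13.0-fold lower there, which is a lower bound at that floor and not an estimate. That value takes the 37 reads as exact and has no interval. In 3B3-3l Gsx1 had 19 and 5 reads. Pax2, a factor of kidney and midbrain, had 23 and 2 reads in J1 and 19 and 3 in 3B3-3l. Emx1, a cortical factor, had 12 reads in serum and 31 in 2i in J1, and 18 and 4 in 3B3-3l. Pax9 had 3 and 10 reads in J1 and 6 and 17 in 3B3-3l. Totals of 3 reads or fewer over a group were found for 4 of these genes in each serum group, 11 in J1 in 2i and 12 in 3B3-3l in 2i. Pax4 had no read in any library.

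Of the 56 genes, 24 lay within 1000 kb of another of them, in 14 pairs, and 3 pairs had both genes tested. Dlx3 and Dlx4 are 15.15 kb apart and both fell in J1, while in 3B3-3l only Dlx3 was called. Irx3 and Irx5, 556.1 kb apart on chromosome 8, fell in both lines. Irx2 and Irx4 are 625.4 kb apart on chromosome 13 and moved in opposite directions in both lines, with Irx2 at 2.08 and 2.22 and Irx4 at -3.08 and -3.52 on the log2 scale in J1 and 3B3-3l. Their neighbour Irx1 had 19 and 3 reads in J1 and 25 and 3 in 3B3-3l.

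Proteins known to work with these factors were counted as a list of 27 genes, of which 24 were tested. In 2i, J1 had 12 of them lower and 6 higher than in serum, and 3B3-3l had 12 lower and 8 higher. Of all genes tested, 32.9% were lower and 33.2% higher in J1, and 32.7% in each direction in 3B3-3l. Ldb1, which bridges LIM factors, differed in its response, with means of 233.3 and 177.1 CPM in serum and 2i in J1 and 198.4 and 213.0 in 3B3-3l (difference of the log2 fold changes 0.50 ± 0.07, adjusted p = 4.6e-05). Of the Groucho family corepressors, Aes rose in both lines (1.15 ± 0.07 and 1.17 ± 0.07) and Tle4 fell in both (-0.73 ± 0.04 and -0.51 ± 0.04). Among 75 other measured homeobox genes outside the rule, 52 were tested. In J1, 22 of these were lower in 2i and 18 higher, and in 3B3-3l 21 were lower and 16 higher, beside the same shares of all genes. Nanog, the pluripotency homeobox factor, rose in both lines, with means of 306.6 and 631.2 CPM in J1 and 346.3 and 594.1 in 3B3-3l. Of the noncoding genes beside or antisense to a member, only Dlx1as was tested, and it was higher in 2i in J1 (0.85 ± 0.33, adjusted p = 0.0325).

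Marker genes of other cell types moved with the medium too. The 12 fibroblast markers summed to 54.02 to 57.45 CPM in J1 in serum, 25.58 to 26.7 in J1 in 2i, 67.21 to 78.7 in 3B3-3l in serum and 15.65 to 16.08 in 3B3-3l in 2i; 6 of the 7 tested were lower in 2i in each line. The seventh, Pdgfrb, rose in J1 (1.62 ± 0.10, adjusted p = 5.85e-10), where it had 6.31 ± 0.855 CPM in serum and 19.5 ± 0.896 in 2i. In serum, Col1a1 was at 28.1 ± 0.209 CPM in J1 and 35.5 ± 4.40 in 3B3-3l, and Lum was the 1 marker without a read in J1. The 6 measured neural markers summed to 204.7 to 212.7, 111.3 to 129.8, 188.4 to 214.8 and 123.5 to 130.2 CPM in the same order of groups, and Neurog2 was at 0 in 3 of the 4 groups. Of the 4 tested, 3 were lower and 1 higher in 2i in J1, and 2 were lower in 3B3-3l. The summed level of 7 mesoderm markers was higher in 2i: J1 had 10.8 to 11.52 CPM in serum and 43.08 to 49.0 in 2i, and 3B3-3l had 14.45 to 19.11 and 30.27 to 31.74. The markers were divided, with 2 of 6 tested higher and 1 lower in J1 and 3 higher and 3 lower in 3B3-3l. Eomes (3.30 ± 0.08 and 2.39 ± 0.08) and T (4.09 ± 0.18 and 2.61 ± 0.17) rose in both lines, while Gata2 fell in 3B3-3l (-2.63 ± 0.16, adjusted p = 3.83e-10) and was at -0.15 ± 0.15 in J1 (adjusted p = 0.417). Hand1, named after its values were seen, was the 1 marker that fell in J1 (-4.77 ± 0.46), and it fell in 3B3-3l as well (-4.04 ± 0.56). The 6 endoderm markers summed to between 3.905 and 7.727 CPM in every library. In 2i, 2 of them were higher and 1 lower in J1, and 4 were lower in 3B3-3l; in serum 5 were higher and 1 lower in 3B3-3l than in J1. Of all genes tested, 32.9% were lower and 33.2% higher in 2i in J1, and 32.7% in each direction in 3B3-3l. Between the lines in serum, 21.5% were higher and 17.2% lower in 3B3-3l. The part of such cells in the changes of the homeobox genes was not tested.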

How the data were processed

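Poly(A) RNA of 12 libraries was prepared by the authors with a stranded kit, sequenced on a NextSeq instrument and quantified with Sailfish in strand-aware mode on mm10 transcript models. The authors summarised transcripts with tximport, and the deposited values are estimated counts per gene and per transcript, not scaled by library size. The gene table held 39017 genes, 85.6% with a symbol. Members were found by symbol (some are not reported here), and members and lists were chosen with earlier results of these data known. Replicates are biological per the labels; the labels do not say which sequencing pool held which library. Reads carried no molecular identifiers, so floors and intervals hold for counting error alone.

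The counts, rounded to integers, were tested with edgeR (version 4.0.16, R 4.3.3): filterByExpr, TMM factors of 0.97 to 1.038, a quasi-likelihood fit with 1 coefficient per group over all 12 libraries, and 5 contrasts. The biological coefficient of variation was 6.49%. Fold changes are given with model SEs, and adjusted p values are Benjamini-Hochberg values over the 17885 genes of this fit. Those quoted for an alternative below are adjusted over the genes tested in that alternative. The script was tested on simulated data with known changes. Members called in at least 1 contrast with a group mean of at least 1 CPM (13 genes) are given by library, and the others by counts. Of other lists at most 4 genes are named, mostly from those with the highest group mean among called genes. Exceptions are the stem cell markers, given as examples, Lum and Neurog2, named for groups without a read, and Hand1, named after its values were seen. Levels per length use effective lengths from the transcript tables, whose sums matched the gene count for 43 of the 56 members. Gene positions and promoter windows are from RefSeq. Alternatives were other scaling (DESeq2 1.42.0 size factors), the DESeq2 Wald test, other count filters, a replicate block, transcript length offsets, the 6 compared libraries alone, a 2-fold threshold and leaving out each library.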

Additional observations from a re-analysis of the deposited data

Results flagged for a closer look

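For 8 genes the change from serum to 2i differed between J1 and 3B3-3l (edgeR quasi-likelihood test of the difference, Benjamini-Hochberg adjusted p under 0.05, 3 libraries per group). The difference of the log2 fold changes, 3B3-3l minus J1, was 2.15 for En1, 1.90 for Nkx2-9, 1.46 for Nkx6-3, 1.38 for Isl1 and 1.26 for Pax8. It was -1.88 for Irx3, -1.23 for Msx2 and -0.97 for Six5. Nkx6-3 rose in both lines, and En1, Nkx2-9, Pax8 and Irx3 fell in both. J1 was grown on feeders in serum and depleted of them before 2i, while 3B3-3l was grown on gelatin. Medium and feeder removal can therefore not be told apart in these differences. Groups of 3 libraries are too small to look for single outlying samples.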

How the results depend on the processing

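Over the alternatives, 93 fold changes of single members gave 1711 values. Of these, 1637 kept direction and call, 54 lost the call, 14 gained one and 6 changed sign, and 65 of the 93 fold changes kept direction and call under every alternative. The 6 sign changes were all in comparisons without a call. With transcript length offsets the Irx2 difference of 2i effects was -0.05, and the cause was not tested. The other 5 came from leaving out 1 library, over which En2 between lines in serum ranged from -0.18 to 0.11 (highest without 3B3-3l serum replicate 3), Msx1 between lines in 2i from -0.06 to 0.15 (below 0 without replicate 2 of either line), Pax6 between lines in 2i from -0.11 to 0.38 (lowest without 3B3-3l 2i replicate 3) and Six5 in J1 from -0.17 to 0.02 (highest without J1 2i replicate 1).

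Asking for at least 10 counts in every library left 13 members, of which 9 were called between media in J1, 13 in 3B3-3l and 5 for the difference of the lines (69.5%, 68.0% and 40.2% of all genes). Of the 14 members this filter removed, 6 missed it in 2i alone, 7 in both media and Lhx2 in serum alone. With a 2-fold threshold 3 members were called between lines in 2i and 3 in serum (8.09% and 4.58% of all genes). Leaving out 1 library lowers the number the filter asks for, so more members were tested; the members called then ranged from 22 to 27 in J1, 24 to 30 in 3B3-3l, 4 to 11 between lines in 2i, 7 to 10 between lines in serum and 8 to 12 for the difference, beside 60.8% to 65.7%, 59.8% to 65.9%, 38.9% to 45.7%, 30.3% to 40.5% and 28.6% to 37.5% of all genes. Same-numbered replicates showed no shared deviation (correlations of -0.118 to 0.0167). Libraries with different numbers were not compared in this way, so pairing by number is not excluded. With the replicate block 19, 25, 8, 8 and 8 members were called, as without it. Depth limits the 29 untested members, with group means up to 0.3045 CPM, and any difference between genes both near 0 in 2i.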
